A study of Homo sapiens with 2 samples.

Results

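Transcription of 10 intermediate filament and lamin genes was examined in BJ cells, an established human foreskin fibroblast line, by global run-on sequencing (GRO-seq). The genes were taken from a fixed list of vimentin, keratin, synemin and lamin symbols, and they are 10 of the 12353 genes with a value in the deposited table. Because the list was drawn up with the table known, all 10 having a value is not a result. In GRO-seq, nuclei are isolated and engaged RNA polymerases extend their transcripts with a brominated nucleotide for 5 min at 30 °C. The labelled RNA is then captured and sequenced, so a value reports polymerase at work on a gene and not the amount of mature mRNA or protein. There was 1 group, untreated BJ cells in medium with 10% serum, with 2 libraries from biological replicates, called library a and library b. Values are FPKM, fragments per kilobase of gene scaled to library size, and errors are SD over the 2 libraries (n = 2). No condition is compared and no p-value is given, since the smallest p that exact sign flips of 2 values allow is 0.5.

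Intermediate filaments are the rope-like part of the cytoskeleton and are built from elongated proteins that pair into coiled coils. Keratins form obligate pairs of a type I and a type II chain and are best known from epithelia. Vimentin, a type III protein, assembles with itself and is the classic filament of fibroblasts and other mesenchymal cells. Lamins are the nuclear members of the family and line the inner nuclear membrane, with A-type lamins from LMNA and B-type lamins from LMNB1 and LMNB2.

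Over all genes the median of the mean FPKM was 11.7, and 25% and 75% of genes lay below 6.295 and 22.2. The libraries ranked the genes alike (Spearman rho 0.986 across genes, which are not independent replicates), and the median gene differed 1.097-fold between them. The read depth behind the values is unknown, so no counting interval is given. The other gene lists were likewise chosen with earlier results of these data known. Their counts are therefore descriptions and do not test the cell label. All 18 fibroblast markers had a value, against 59.8% of RefSeq protein-coding genes, and 16 lay above the median gene, against 50.0% of all genes. COL1A1, a type I collagen chain, stood at 649 ± 48.1, while PDGFRA (8.72 ± 0.686) and DCN (7.34 ± 0.495) lay below the median gene. Of 14 epithelial markers 6 had a value, against the same 59.8%. Summed, these came to 50.04 (library a) and 55.3 (library b). The claudin gene CLDN7 (30.9 ± 5.26) made up most of it, E-cadherin, CDH1, stood at 1.49 ± 0.0141, and EPCAM, GRHL2 and TP63 had no value. The part of other cell types in the keratin values was not tested.

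The sequences just upstream of the start sites are shown first, because their base composition varied widely within the list. RefSeq start-site windows (GRCh38.p14) matched 8 of the 10 genes with 11 windows. KRT18 and KRT80 had none. The FPKM values were made on hg19, so these positions are not those of the authors' gene models. Each window below holds the 250 bases before a start, 5′ to 3′ on the gene's strand, and capitals mark the GC box GGGCGG and the TATA box TATAAA, each searched on both strands. The 6 genes were chosen to span the list from its highest member with a window to a low one and to hold all 3 lamins.
VIM (chr10:17227991-17228240, plus strand): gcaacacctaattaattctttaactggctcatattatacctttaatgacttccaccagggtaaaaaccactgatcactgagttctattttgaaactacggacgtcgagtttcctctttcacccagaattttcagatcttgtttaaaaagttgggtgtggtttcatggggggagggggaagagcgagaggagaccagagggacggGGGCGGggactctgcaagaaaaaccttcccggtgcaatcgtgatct
KRT10 (chr17:40822615-40822864, minus strand): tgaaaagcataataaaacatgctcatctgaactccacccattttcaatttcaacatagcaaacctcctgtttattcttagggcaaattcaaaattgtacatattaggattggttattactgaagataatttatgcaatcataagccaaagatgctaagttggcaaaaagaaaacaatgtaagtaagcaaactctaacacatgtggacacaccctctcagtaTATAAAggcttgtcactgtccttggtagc
SYNM (chr15:99104830-99105079, plus strand): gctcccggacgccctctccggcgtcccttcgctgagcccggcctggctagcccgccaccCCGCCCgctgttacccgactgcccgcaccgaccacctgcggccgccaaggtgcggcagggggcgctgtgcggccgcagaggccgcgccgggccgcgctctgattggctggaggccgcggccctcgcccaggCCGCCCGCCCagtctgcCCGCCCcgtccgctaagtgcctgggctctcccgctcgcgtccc
LMNA (chr1:156082323-156082572, plus strand): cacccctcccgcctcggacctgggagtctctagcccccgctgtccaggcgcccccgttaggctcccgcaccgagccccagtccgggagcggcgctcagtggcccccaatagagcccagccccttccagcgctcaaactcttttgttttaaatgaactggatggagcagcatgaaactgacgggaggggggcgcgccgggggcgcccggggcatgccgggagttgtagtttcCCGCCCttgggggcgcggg
LMNB1 (chr5:126776373-126776622, plus strand): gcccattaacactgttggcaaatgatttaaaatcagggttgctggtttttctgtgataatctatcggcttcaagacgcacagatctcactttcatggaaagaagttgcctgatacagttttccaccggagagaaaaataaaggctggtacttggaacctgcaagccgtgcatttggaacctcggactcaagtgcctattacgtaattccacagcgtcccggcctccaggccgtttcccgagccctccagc
LMNB2 (chr19:2456960-2457209, minus strand): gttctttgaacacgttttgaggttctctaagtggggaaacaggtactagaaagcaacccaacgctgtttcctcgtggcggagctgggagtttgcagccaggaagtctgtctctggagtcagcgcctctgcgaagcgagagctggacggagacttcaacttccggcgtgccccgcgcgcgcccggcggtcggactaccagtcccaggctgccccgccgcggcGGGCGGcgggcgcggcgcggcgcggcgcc

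The TATA box letters occurred in 2 of the 11 windows, those of KRT10 and KRT34, and in 10.8% of 34943 windows of the same length over all genes. They began 29 bases before the KRT10 start and 31 bases before the KRT34 start. The 30 bases from 40 to 11 before the start show this for both genes.
KRT10: ccctctcagtaTATAAAggcttgtcactgt
KRT34: aattaatggTATAAAaggactgcagaggaa

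The windows of KRT10 and KRT34 held no CG dinucleotide and that of KRT8 held 1, against a median of 11 over all windows. Lamin and synemin windows lay mostly on the other side: CG counts were 21 for the first of 3 LMNA windows, 30 for LMNB2 and 34 for SYNM, while the first LMNB1 window held 10 and its second 29. VIM held 8. The GC box occurred in 7 of the 11 windows, against 42.5% of all windows. The LMNB1 window shown held none, while its second window held 4. GC content was 34.8% for KRT10, 42.4% for KRT34, 46.0% for VIM and 78.8% for SYNM (median of all windows 58.0%). These matches describe letters in a window and do not show binding. The KRT8 and KRT34 windows lie inside the annotated spans of these genes, which reach further upstream.

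Vimentin had by far the highest value of the 10. VIM stood at 545 and 532 FPKM in libraries a and b (539 ± 9.28), which was 46.03 times the median gene and rank 42 of 12353. The next member, KRT18, was 7.01-fold lower (log2 ratio of VIM to KRT18 2.84 and 2.78 in libraries a and b). Ratios between single genes are on the log2(FPKM + 0.1) scale. VIM was the only one of the 10 at FPKM 100 or more, a level that 2.43% of all genes reached. It held 73.9% ± 0.272 of the summed FPKM of the 7 cytoplasmic members, and its value was 2.83-fold the sum of the other 6 (log2 ratios of 1.51 in library a, 1.49 in library b). Over all 13 cytoplasmic filament genes with a value, NES included, its share was 64.0% ± 1.14 and the log2 ratio of VIM to the sum of the others was 0.83. Against the other filament systems of the cell, VIM lay 1.39-fold below the actin gene ACTB (750.3 ± 18.2; log2 ratio -0.48 ± 0.0598), 2.62-fold below the actin gene ACTG1 (1410 ± 44.9; log2 ratio -1.39 ± 0.0708) and 3.15-fold above the tubulin gene TUBA1B (171 ± 6.03; log2 ratio 1.65 ± 0.0757). These 3 differences exceeded 2 SD over the libraries. The antisense gene VIM-AS1 overlaps VIM in RefSeq and had no value. Whether reads were counted by strand is a point not given in the sources used here, so its reads and those of VIM cannot be told apart.

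**Figure D1:**
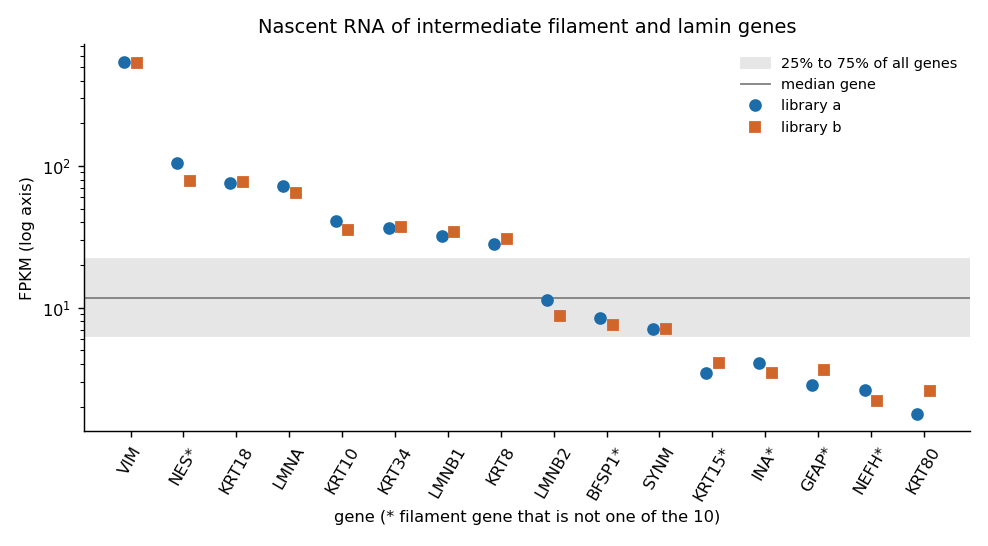
FPKM (log axis) of all 16 intermediate filament genes with a value, in library a (circles) and library b (squares), in order of their mean; the line is the median gene, the band holds the middle of all genes from 25% to 75%, and asterisks mark filament genes outside the list of 10. VIM stands apart at 532 to 545, a group from KRT18 to KRT8 lies above the band, and KRT80 is the lowest of the 16.

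The level plot shows the other 9 genes below VIM. A total of 7 of the 10 lay above the median gene, against 50.0% of all genes. KRT18 and LMNA came next to VIM, then KRT10, KRT34, LMNB1 and KRT8, all 4 between 28 and 41 FPKM in both libraries, and then LMNB2, SYNM and KRT80. The highest member was 246-fold above the lowest. Of the 9 pairs of neighbours in this order, 6 differed by more than 2 SD over the libraries and 3 did not. Those 3 were KRT18 and LMNA (log2 ratio 0.16 ± 0.123), KRT10 and KRT34 (0.05 ± 0.167), and LMNB2 and SYNM (0.50 ± 0.271). An SD from 2 values is very uncertain, so a pair past 2 SD is not thereby shown to differ. KRT10 was above KRT34 in library a and below it in library b, the 1 pair of neighbours whose values overlapped.

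Of the keratins, the pair typical of simple epithelia, KRT18 (type I) and KRT8 (type II), was transcribed unequally. KRT18 had 76.2 and 77.2 FPKM in libraries a and b (76.7 ± 0.679), and KRT8 had 28.3 and 30.4 (29.3 ± 1.48). The groups of values did not overlap, and KRT18 was 2.61-fold higher (log2 ratio 1.43 and 1.34, mean 1.38 ± 0.0597). Both values are uncertain. RefSeq lists 68 pseudogenes named after KRT18 and 52 named after KRT8, none of them with a value here, and how reads matching several copies were handled is likewise not stated. In RefSeq on GRCh38 the 2 genes are also neighbours on chromosome 12 whose spans overlap, and which gene received the overlapping reads is not stated.

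Epidermal and hair keratins followed. KRT10, the type I keratin of differentiating epidermis, had 40.95 and 35.5 FPKM in libraries a and b (38.2 ± 3.87). The overlapping antisense gene KRT10-AS1 had a value of its own, 7.22 ± 0.764. KRT34, a type I hair keratin, had 36.5 and 37.3 (36.9 ± 0.537), nearly the same in both. KRT80, a type II keratin of epithelia, was the lowest member with 1.78 and 2.60 in libraries a and b (2.19 ± 0.580), and only 4.47% of all genes ranked below it. KRT10 exceeded KRT8 in both libraries (log2 ratios 0.53 and 0.22), which was within 2 SD, while KRT34 exceeded KRT8 by 0.33 ± 0.0515.

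As a class, the listed type I keratins had higher FPKM than the listed type II keratins. The mean log2 level of KRT18, KRT10 and KRT34 exceeded that of KRT8 and KRT80 by 2.73 (library a) and 2.37 (library b), a mean of 2.55 ± 0.258 or 5.86-fold. The 3 type I members summed to 154 and 149.9 FPKM in libraries a and b, and the 2 type II members to 30.06 and 32.97. The type I members thus held 82.8% ± 1.18 of the sum of these keratins, and the ratio of sums was 4.82-fold. Each of the 3 type I members was above each of the 2 type II members in both libraries. The size of the class difference rested on which genes entered. With KRT80 left out by a minimum of FPKM 5 in both libraries it was 0.70 on the log2 scale, and with KRT15, a type I keratin with a value outside the list (3.45 and 4.04), it was 1.64. KRT15 lay below the type II gene KRT8 in both libraries, so the order of the members does not hold for every measured keratin.

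**Figure D2:**
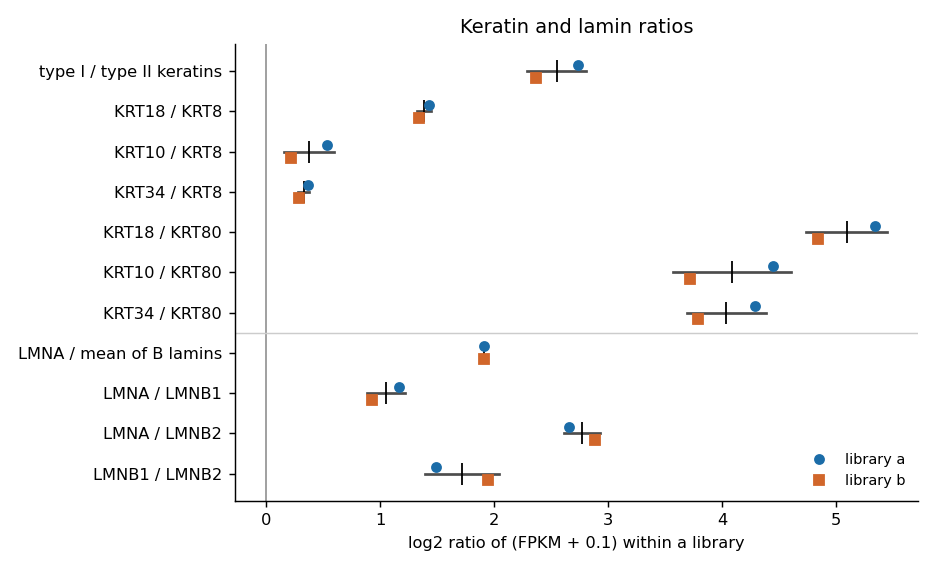
Log2 ratios of (FPKM + 0.1) between keratin genes (above the line) and lamin genes (below it) within library a (circles) and library b (squares); ticks are means and bars are ± 1 SD over the 2 libraries. All ratios lie above 0, KRT10 to KRT8 and KRT34 to KRT8 are nearest to it, and the LMNA to LMNB1 and LMNA to LMNB2 ratios move in opposite directions between libraries.

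Most keratin genes had no value. Of the 28 type I genes 4 had one (KRT10, KRT15, KRT18 and KRT34) and of the 26 type II genes 2 (KRT8 and KRT80). That is 6 of 54 keratin genes, 11.1%, against 59.8% of RefSeq protein-coding genes. The basal epidermal pair KRT5 and KRT14 and the simple-epithelium genes KRT7 and KRT19 were among the 48 without a value. The table has no values of 0 and none under 0.27, so a gene without a value is described only as having none. By chromosome, values were found for 3 of 27 keratin genes on chromosome 17 and 3 of 27 on chromosome 12. The protein-coding genes next to KRT34 on either side, the hair keratin genes KRT33B and KRT31, had no value, and neither had KRT28 and KRT12 beside KRT10. Between KRT80 and KRT8 lay 24 protein-coding genes, none with a value.

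**Figure D3:**
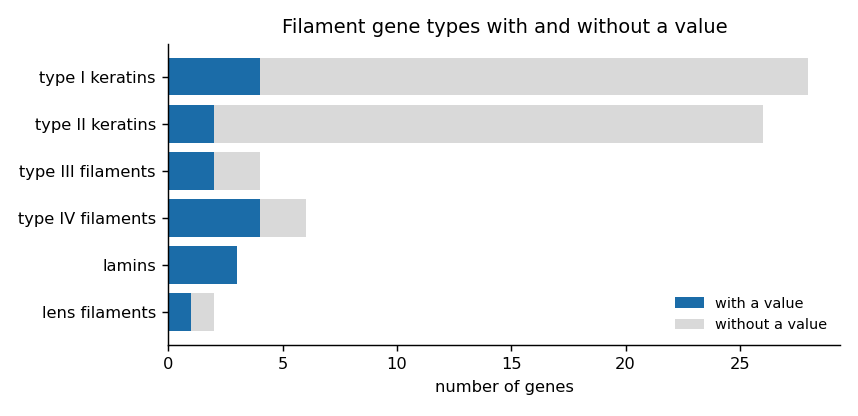
Number of genes of each filament type that had a value (dark) or none (pale). Keratins had 6 of 54, type III genes 2 of 4, type IV genes 4 of 6, lens filament genes 1 of 2 and lamins 3 of 3.

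Of the type III and type IV genes other than VIM, 5 of 9 had a value (55.6%), close to the 59.8% of all protein-coding genes. SYNM encodes synemin, a large type IV protein that joins vimentin or desmin filaments, and had 7.01 and 7.02 FPKM in libraries a and b, 75.7-fold below VIM. In RefSeq SYNM overlaps the protein-coding gene TTC23 (11.6 ± 0.205), and which gene received the overlapping reads is not stated. The antisense genes SYNM-AS1 and TTC23-AS1 also overlap SYNM and had no value. Of the family members outside the list, NES was the one at a high level. It encodes nestin, a type IV partner of vimentin in dividing and progenitor cells, and had 105 and 78.1 FPKM in libraries a and b (91.7 ± 19.2). It was above KRT18 in both libraries, although in library b by a log2 ratio of only 0.02 (mean 0.24 ± 0.317). The desmin gene DES, the peripherin gene PRPH and the neurofilament genes NEFL and NEFM had no value. GFAP (3.23 ± 0.530), INA (3.74 ± 0.424) and NEFH (2.42 ± 0.311), known from glia and neurons, and the lens gene BFSP1 (8.04 ± 0.651) lay below the median gene.

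The lamin genes were all transcribed, in the order LMNA, LMNB1, LMNB2. LMNA, which encodes lamins A and C by alternative splicing that this assay does not separate, had 72.3 and 64.9 FPKM in libraries a and b (68.6 ± 5.23). LMNB1 had 32.1 and 33.9 (33.0 ± 1.29), and LMNB2 11.4 and 8.70 (10.03 ± 1.88). No value of 1 lamin gene overlapped with those of another in either library. LMNA was 2.07-fold above LMNB1 (log2 ratio 1.17 and 0.93 in libraries a and b) and 6.83-fold above LMNB2 (2.66 and 2.88). LMNB1 was 3.30-fold above LMNB2 (1.49 and 1.95).

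Against the mean log2 level of the B lamins, LMNA was 3.76-fold higher, with 1.91 in each library (1.91 ± 0.00349). The small SD arose because the 2 ratios of LMNA moved in opposite directions and nearly cancelled in the mean. From library a to b the log2 ratio to LMNB1 fell from 1.17 to 0.93 and that to LMNB2 rose from 2.66 to 2.88. LMNA itself was lower in library b, as was LMNB2, and LMNB1 was slightly higher. Set against the summed FPKM of both B lamins, LMNA was 1.59-fold higher (log2 ratio 0.67 ± 0.0905). LMNA held 61.4% ± 1.49 of the lamin sum, LMNB1 29.6% ± 2.70 and LMNB2 8.95% ± 1.22.

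Partners of the lamins in the nuclear envelope were at moderate levels. All 10 inner nuclear membrane genes had a value (median FPKM 24.6), against 59.8% of RefSeq protein-coding genes. Of these 10 genes 9 lay above the median gene, against 50.0% of all genes. They ranged from LEMD2 (41.1 ± 2.93), EMD, which encodes emerin (31.2 ± 3.71), and TMEM43 (31.1 ± 0.474) down to LBR (8.69 ± 0.163), the lamin B receptor. LMNB1 was 3.77-fold above LBR. The LINC complex, which couples the lamina to the cytoskeleton, had lower values (5 of 5 genes, median 3.93): SUN2 stood at 18.4 ± 2.87, SUN1 at 5.94 ± 0.488, SYNE3 at 3.93 ± 0.445 and SYNE2 was lowest at 1.14 ± 0.156. The 5 genes of lamin tail processing all lay above the median gene and below the 75% quartile. They ran from FNTB (13.3 ± 0.177), a farnesyltransferase subunit, and ZMPSTE24 (14.7 ± 0.884), the prelamin A protease, to RCE1 (19.2 ± 2.66) and ICMT (21.8 ± 2.22).

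The plakin genes, among them linkers of cytoplasmic filaments, were divided. Of 7 plakin genes 6 had a value, against 59.8% of RefSeq protein-coding genes. DST (36.0 ± 2.40), PLEC (29.1 ± 4.58) and MACF1 (22.2 ± 1.65), which link parts of the cytoskeleton, lay above the median gene. The plakins of desmosomes and the cornified envelope lay below it, namely PPL (8.59 ± 0.0424), DSP, the desmosomal anchor of keratins (2.35 ± 0.0495), and EVPL (1.23 ± 0.474). Of 10 other desmosome genes 3 had a value, against the same 59.8%. These were PKP4 (7.55 ± 0.707), PKP3 (3.28 ± 0.827) and JUP (1.77 ± 0.00707), all below the median gene.

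**Figure D4:**
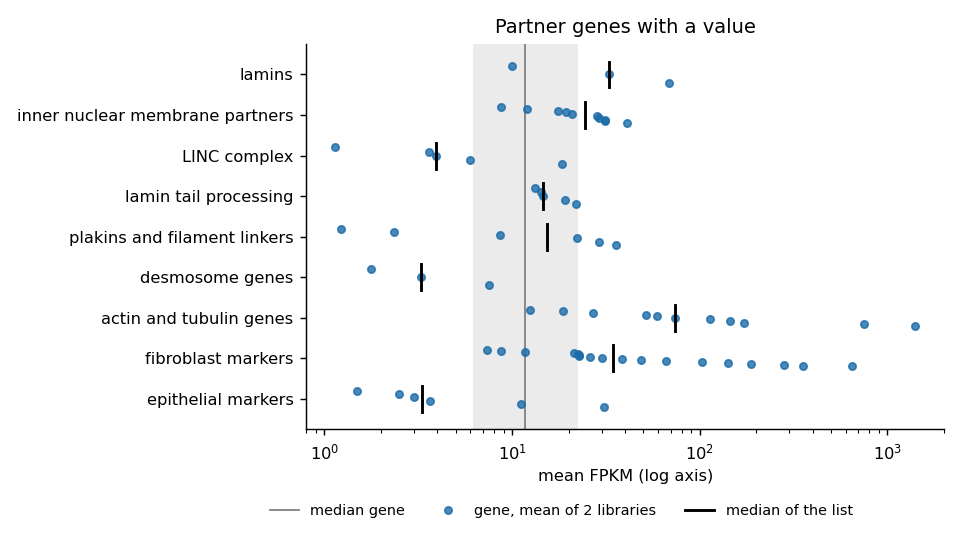
Mean FPKM over the 2 libraries (log axis) of each gene with a value in the lamin list and in lists of partner genes and markers; bars are list medians, the line is the median gene and the band holds the middle of all genes from 25% to 75%. Inner nuclear membrane genes reach from 8.69 to 41.1, whereas the LINC complex and desmosome lists lie mostly below the median gene.

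The libraries gave similar values for the 10 genes. None of the 10 differed by more than 1.5-fold after centring on the median of all genes, against 2.16% of all genes. After centring, 6 were higher in library b and 4 in library a, and the median absolute log2 difference was 0.11, against 0.13 over all genes. The largest differences of the 10 were those of KRT80 and LMNB2. Before centring, KRT80 was 1.46-fold higher in library b and LMNB2 1.31-fold higher in library a. SYNM, also low, differed 1.001-fold before centring.

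Genes beside the 10 along the chromosomes were compared with them as a description. Leaving out KRT8 with KRT18 and KRT8 with KRT80, which are neighbours of each other, 16 nearest genes with a value remained. Of these, 11 lay below their member and 5 above. No matching share for other genes was computed, and 7 of the 10 lay above the median gene, so this split is not a result. The 16 include KRT10-AS1 and TTC23, which overlap KRT10 and SYNM, and the keratin gene KRT15. VIM stood between TRDMT1 (9.33 ± 0.212) and HACD1 (11.2 ± 0.297), LMNB1 between PHAX (7.34 ± 0.290) and C5orf63 (3.27 ± 0.0495), and LMNA between LAMTOR2 (23.3 ± 3.47) and SEMA4A (3.17 ± 0.849). LMNB2 lay beside the stress gene GADD45B (195.5 ± 8.10) and below it, and KRT80 beside the autophagy gene ATG101 (78.1 ± 4.37). KRT18 had EIF4B (42.7 ± 0.148) on the side away from KRT8.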

How the data were processed

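GRO-seq was done on 2 libraries of untreated BJ cells. The authors deposited FPKM values per Ensembl gene, not pooled over replicates. Per the submitters' processing notes Bowtie2, HTSeq and hg19 were used, with no version named. The length, read total and listing minimum behind the FPKM were not given in the sources used here. Column names end in a and b, so they show the group and not which numbered replicate each is. Both value columns were used. Identifiers were matched to symbols (12202 of 12353).

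The 10 genes and the lists of filament, partner and marker genes were chosen with earlier results of these data known. Named were all 10, each filament gene with a value, and, by the rule, genes from among the 3 highest and the lowest of other lists and the nearest genes with a value. Further genes of the partner lists and of the keratin-associated family were chosen after their values were seen. Ratios between single genes and differences of mean log2 levels used log2(FPKM + 0.1) within a library. Ratios of summed FPKM of the members used no pseudocount. Medians, ranks and library differences were taken over all 12353 genes with pandas 2.3.3, and the procedure was tested on simulated data. Alternatives were other pseudocounts, scalings, a minimum FPKM, single libraries and other ways to sum a class.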

Additional observations from a re-analysis of the deposited data

How the results depend on the processing

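The excess of LMNA over the mean of the B lamins was 1.85 on the log2 scale with a pseudocount of 1, 1.92 with 0.01 and 1.92 after quantile normalization, shifts that exceed its very small SD, and 0.67 against the summed B lamins. The keratin class difference was 0.70 with a minimum FPKM of 5 in both libraries, where KRT80 drops out, 2.27 from summed FPKM and 1.64 with KRT15 added to type I, an alternative chosen after seeing the data. VIM over the sum of every other cytoplasmic filament gene with a value, also chosen after seeing the data, was 0.83 on the log2 scale, since NES enters the sum. After quantile normalization 1 of the 10, KRT80, passed 1.5-fold between libraries. The other 153 of 162 alternative values stayed within 1 SD of the reported value or, for counts, within 1.5 times, and the 1 change of sign was that of KRT10 against KRT34, which was 0.05 on the log2 scale and -0.07 without library a. With 2 libraries, a value from either alone lies within 1 SD by construction. A minimum FPKM of 1 left all 16 filament genes with a value in place. FPKM carries no depth, so the precision of low genes such as KRT80 is unknown.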

Other observations

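Keratin-associated proteins form the matrix around the keratins of the hair shaft, and few of their genes had values. Of 94 protein-coding genes of this family in RefSeq 5 had one (5.32%, against 59.8% of all protein-coding genes), a count chosen after the values were seen. KRTAP1-5 was highest with 66.6 and 79.5 FPKM in libraries a and b, followed by KRTAP4-8 (25.9 and 27.5), KRTAP2-3 (21.9 and 24.7), KRTAP4-12 (18.6 and 25.4) and KRTAP3-1 (14.1 and 15.4). All 5 lay above the median gene and all were higher in library b. These genes are short and similar to each other, so their values are uncertain.

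LMNB1 is known to be lost in senescent fibroblasts. No senescent cells were measured, so whether its 33.0 FPKM bears on senescence was not tested. All 12 proliferation genes had a value above the median gene (median 36.7), against 50.0% of all genes. CDC20 (102 ± 3.96), AURKB (94.96 ± 10.2) and PCNA (72.5 ± 1.55) were highest and E2F1 lowest (14.5 ± 0.820). Actin and tubulin genes had values for 11 of 12 (median 74.0), led by ACTG1 (1410 ± 44.9). Among markers of other cells, with 59.8% of all protein-coding genes having a value, 5 of 9 muscle genes had a value (median 3.0, highest LMOD1 at 16.7 ± 1.06), 4 of 7 melanocyte genes (median 7.22, highest PMEL at 22.4 ± 2.23), 2 of 8 leukocyte genes (CD74 at 11.8 ± 2.47 and CSF1R at 8.66 ± 1.15) and 1 of 8 endothelial genes (ESAM at 3.56 ± 0.226).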
